A study of Homo sapiens with 9 samples.

Results

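Cholesterol and fatty acids are both built from cytosolic acetyl-CoA, and the genes of both routes are switched on by SREBPs, transcription factors that are held in the endoplasmic reticulum by the sterol sensor SCAP and the INSIG proteins until membrane sterol falls. SREBP-2, made from SREBF2, is known mainly for the sterol genes, and SREBP-1, made from SREBF1, mainly for the fatty acid genes, while LXRs, nuclear receptors for oxidised sterols, switch on sterol exporters and SREBF1. The 36 genes described here are listed enzymes, regulators and targets of this pathway, found by symbol in a deposited table of 36385 genes. All 36 had a row and passed the filter on low counts in each of the 3 comparisons.

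RNA was sequenced from MG-63, a line from a human osteosarcoma that serves as an osteoblast model, at day 7 on 3 surfaces with 3 libraries each. The surfaces were boronized Ti6Al4V with HA (HA coating), Ti6Al4V with TiB2 (TiB2) and plain Ti6Al4V, a titanium alloy used for implants (bare alloy). Per the labels' protocols, cells of all groups were grown in DMEM with 10% FBS and 1% penicillin-streptomycin and then kept in DMEM with 100 nM dexamethasone, ascorbic acid at 50 µg/mL and beta-glycerophosphate at 10 mM. The labels mark the TiB2 libraries as left out of the submitters' final analysis, give all 9 libraries 1 batch, and do not state how many cultures stand behind the libraries of a surface. The p-values therefore rest on a spread between libraries that may be technical. In RNA of whole cultures, fewer cells that express a gene and less of its RNA per cell cannot be told apart.

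The libraries held 58464306 to 72542556 counts. Replicates differed by more than sampling noise, with a median squared deviation of 44.2 to 69.3 times the Poisson value on the HA coating and 10.2 to 15.4 times on TiB2 and bare alloy. A smooth trend over GC content and transcript length took up 30.9% and 27.0% of the deviation of HA replicates 2 and 3 from the mean of all libraries, 6.52% of that of HA replicate 1, and at most 11.8% elsewhere. Of 7 markers of osteoblasts and mesenchyme, all were detected on each surface, with summed levels of 5391 to 9124 CPM (counts scaled to library size, with TMM factors) on the HA coating, 8435 to 8822 CPM on TiB2 and 16151 to 17822 CPM on bare alloy. These sums are mostly COL1A1, COL1A2, SPARC and VIM, whereas ALPL, an enzyme of bone mineralisation, had 8.46 to 16.02 CPM on the HA coating, 11.005 to 16.3 CPM on TiB2 and 1.1 to 2.17 CPM on bare alloy, and THY1 was likewise higher in each coated library than in any bare alloy library. The labels call the cells epithelial-like, and of 4 epithelial genes KRT8 and KRT18 had 73.5 to 118 and 47.4 to 115 CPM, while EPCAM and CDH1 had at most 1.15 and 0.548 CPM. Markers of adipocytes, cells rich in these enzymes, summed to 0.872 to 2.68 CPM on the HA coating, 1.11 to 2.15 CPM on TiB2 and 2.05 to 2.44 CPM on bare alloy. The adipocyte genes ADIPOQ, LEP and CIDEC were at or near 0 in every library. Markers of endothelium, 3 genes, summed to 10.9 to 12.5 CPM on the HA coating, 9.23 to 9.81 CPM on TiB2 and 26.4 to 34.9 CPM on bare alloy, where CDH5 was the highest of them, and their part in the results was not tested. Bare alloy replicate 1 stood apart from replicates 2 and 3 in some rows, but not in the median squared deviation. That was 13.4 times the Poisson value for replicates 1 and 2, 10.2 times for 1 and 3, and 11.8 times for 2 and 3. In all, 4 rows without a symbol took at most 0.197% of the counts in the coated libraries, against 6.46%, 1.07% and 0.617% in bare alloy replicates 1, 2 and 3. Bare alloy replicate 1 also shared with the HA libraries a count of 0 for CD3E, a T cell gene. CD3E had 1.66 to 2.47 CPM on TiB2 and 1.61 and 1.5 CPM in bare alloy replicates 2 and 3. A count of 0 in bare alloy replicate 1 allows up to 0.0513 CPM, here scaled to library size without the TMM factor. What these differences between libraries add to the results below was not tested beyond the alternative fits. Those leave out each library, add an offset for GC content and length, or set bare alloy replicate 1 and the HA libraries against the rest.

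Most enzymes of sterol synthesis were higher on the coated surfaces than on bare alloy, 13 of 19 on the HA coating and 15 of 19 on TiB2, with folds of 1.98 to 5.11 on the HA coating among those past the test. PMVK, GGPS1, TM7SF2 and SC5D passed on neither surface, and LSS and DHCR7 passed on TiB2 and not on the HA coating. On TiB2 all 8 fatty acid enzymes passed as higher as well, while on the HA coating 2 of 8 did. The counts of the 2 surfaces are not on equal terms. In simulated data the test against bare alloy recovered 17% of 2-fold changes for the HA coating and 57% for TiB2. Between the coated surfaces no fatty acid enzyme passed. In edgeR's quasi-likelihood test with Benjamini-Hochberg adjustment over all genes and a threshold of 0.05, 17 of the 36 genes were higher and 2 lower on the HA coating than on bare alloy. Over all 20117 genes tested there, 5.02% were higher and 4.88% lower, 9.89% in all. On TiB2 against bare alloy 28 of 36 were higher and 2 lower, against 12.9% higher and 12.2% lower of 20152 genes, 25.1% in all. On the HA coating against TiB2, 1 of 36, ABCG1, passed the test and was lower, against 0.632% of 20086 genes in all and 0.453% lower. The median log2 fold change over all genes tested was 0.02, 0.00 and 0.02 in these 3 comparisons. In 22, 32 and 12 of the 36 genes the libraries of the 2 surfaces did not overlap. Over all genes tested these shares were 34.5%, 42.1% and 18.1%, and statements on overlap below stand against them. Without bare alloy replicate 1, 11 of 36 genes passed on the HA coating and 30 of 36 on TiB2, and without bare alloy replicate 2 or 3 it was 10 and 11 on the HA coating and 30 and 28 on TiB2. The calls over all genes were also fewer in these 3 fits, at 857, 598 and 601 genes on the HA coating (1990 with every library) and 4211, 3902 and 3685 on TiB2 (5059 with every library). Both comparisons with bare alloy use the same 3 bare alloy libraries, so their values are given side by side and are not independent.

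**Figure D1:**
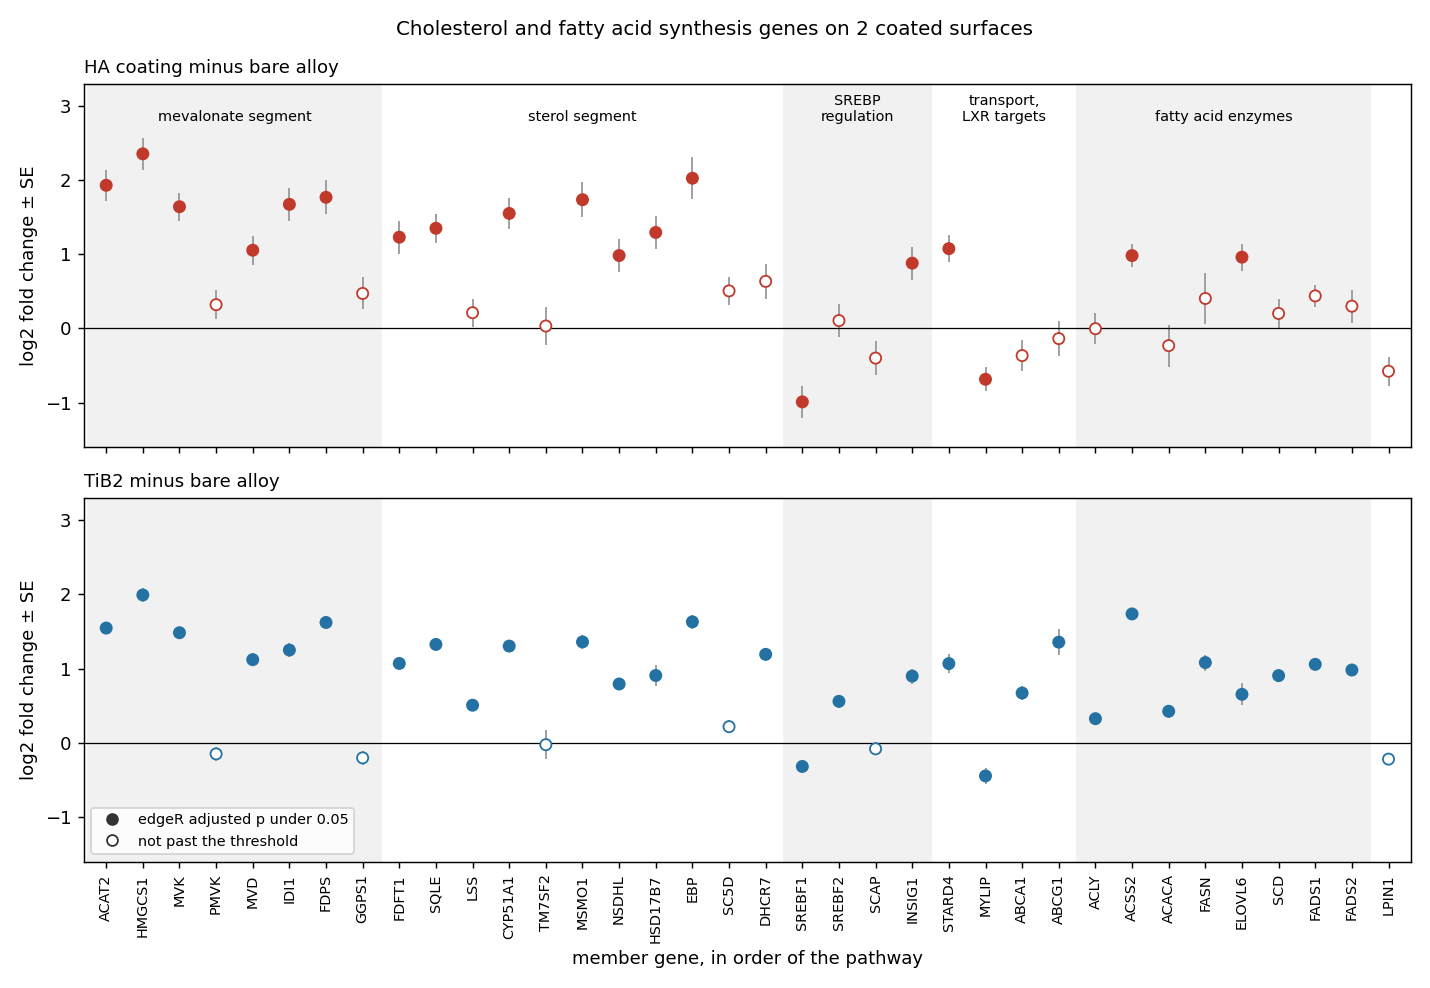
Log2 fold change with its standard error (edgeR) of each of the 36 genes, in order of the pathway, for HA coating minus bare alloy (upper panel, red) and TiB2 minus bare alloy (lower panel, blue). Filled points passed the adjusted p threshold of 0.05. In both panels most sterol genes lie above 0, while the fatty acid enzymes are filled throughout on TiB2 and for ACSS2 and ELOVL6 on the HA coating.

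Promoter sequence is shown for 6 of the genes that were higher on a coated surface, SREBF2, INSIG1, MVK, MSMO1, NSDHL and EBP, because sterol promoters are known for binding sites of SREBP beside those of NF-Y, a factor that binds the letters CCAAT and helps SREBP. Each line gives the 250 bases upstream of a RefSeq start (GRCh38.p14), read 5′ to 3′ on the gene's strand. Capitals mark the letters TCACNCCAC or CACNCCAC (cores of the sterol regulatory element) and CCAAT, on either strand, where CCAAT reads ATTGG on the other strand.
SREBF2 (chr22:41832855-41833104, plus strand): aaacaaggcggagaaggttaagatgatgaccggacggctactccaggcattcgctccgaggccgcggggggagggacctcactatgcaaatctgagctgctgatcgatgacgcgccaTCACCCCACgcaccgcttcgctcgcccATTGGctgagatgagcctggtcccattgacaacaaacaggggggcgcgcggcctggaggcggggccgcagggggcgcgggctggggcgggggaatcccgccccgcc
INSIG1 (chr7:155297628-155297877, plus strand): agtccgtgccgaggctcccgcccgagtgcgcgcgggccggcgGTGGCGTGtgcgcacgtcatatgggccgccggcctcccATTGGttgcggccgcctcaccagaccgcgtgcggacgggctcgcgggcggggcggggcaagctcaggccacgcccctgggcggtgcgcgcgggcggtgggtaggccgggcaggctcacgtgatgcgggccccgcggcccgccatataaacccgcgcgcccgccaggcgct
MVK (chr12:109573544-109573793, plus strand): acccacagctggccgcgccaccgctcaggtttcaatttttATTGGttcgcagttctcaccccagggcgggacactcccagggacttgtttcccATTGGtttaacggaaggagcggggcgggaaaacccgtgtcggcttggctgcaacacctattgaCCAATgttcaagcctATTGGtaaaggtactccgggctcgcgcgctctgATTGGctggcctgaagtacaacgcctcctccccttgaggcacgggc
MSMO1 (chr4:165327419-165327668, plus strand): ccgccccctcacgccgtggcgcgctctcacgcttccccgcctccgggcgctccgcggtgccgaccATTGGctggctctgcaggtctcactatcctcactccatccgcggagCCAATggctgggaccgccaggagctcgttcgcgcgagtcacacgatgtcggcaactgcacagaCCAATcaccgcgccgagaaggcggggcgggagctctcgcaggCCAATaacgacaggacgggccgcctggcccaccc
NSDHL (chrX:152830813-152831062, plus strand): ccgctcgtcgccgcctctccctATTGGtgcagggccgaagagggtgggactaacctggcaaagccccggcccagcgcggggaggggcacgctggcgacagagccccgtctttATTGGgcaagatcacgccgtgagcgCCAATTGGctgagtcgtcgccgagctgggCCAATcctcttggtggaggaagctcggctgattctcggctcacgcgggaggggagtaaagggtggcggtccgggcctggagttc
EBP (chrX:48521558-48521807, plus strand): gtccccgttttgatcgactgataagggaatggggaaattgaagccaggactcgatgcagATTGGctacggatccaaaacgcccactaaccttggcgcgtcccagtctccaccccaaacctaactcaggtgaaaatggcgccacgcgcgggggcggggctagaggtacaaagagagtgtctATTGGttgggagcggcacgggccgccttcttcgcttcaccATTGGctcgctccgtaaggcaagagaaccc

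SREBF2, which encodes SREBP-2 itself, carried the full core TCACNCCAC 133 bases upstream of its start with CCAAT 106 bases upstream. INSIG1 carried the short core 208 bases and CCAAT 170 bases upstream, both read on the other strand. MVK and NSDHL carried CCAAT at 5 places each, MSMO1 at 4 and EBP at 3, and in NSDHL one pair overlaps in the run CCAATTGG. Promoter windows of 300 bases, 250 before and 50 after a RefSeq start, were at hand for 31 of the 36 genes. CCAAT on either strand lay in a window of 14 of 16 sterol enzymes (87.5%) and 5 of 7 fatty acid enzymes (71.4%), against 39.7% of 27305 genes. The sterol enzymes without it were CYP51A1, which was higher on both coated surfaces, and PMVK, which passed on neither. GGPS1, TM7SF2 and SC5D, which also passed on neither, held it. The GC box GGGCGG, which the factor SP1 binds, lay in 15 of 16 sterol and 7 of 7 fatty acid enzymes, against 48.3% of all genes. The full core TCACNCCAC lay in 1 of 31 genes, SREBF2, against 1.39% of all genes, and its short form CACNCCAC, which the full core contains, in 7 of 31 (22.6%) against 7.05%. Of the sterol enzymes 0 of 16 held the full core and 2 of 16 (12.5%) the short form. Of the fatty acid enzymes it was 0 of 7 and 2 of 7 (28.6%). The E box CACGTG lay in 5 of 31 (16.1%) against 8.77%, and in 2 of 16 sterol and 0 of 7 fatty acid enzymes. These matches are a description of letters in the windows, and genes with several windows have more chances of a match.

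The mevalonate segment turns acetyl-CoA into the isoprene units of sterols. Of its 8 listed genes 6 were higher on the HA coating and the same number on TiB2 than on bare alloy, with medians of 1.66 and 1.37 on the log2 scale over all 8. ACAT2, the thiolase that joins acetyl-CoA units, had 125, 163 and 218 CPM on the HA coating, 139, 117 and 129 CPM on TiB2 and 42.6, 46.8 and 42.2 CPM on bare alloy. HMGCS1, the synthase of the next step (GRCh38 chromosome 5, 43287470 to 43313512), had 248, 384 and 388 CPM on the HA coating, 258, 249.9 and 281 CPM on TiB2 and 59.7, 75.5 and 62.8 CPM on bare alloy. Every coated library lay above every bare alloy library for both genes. Of all genes tested, 34.5% on the HA coating and 42.1% on TiB2 did not overlap with bare alloy in either direction. HMGCS1 was 5.11-fold higher on the HA coating (log2 fold change 2.35 ± 0.22, SE; edgeR adjusted p = 0.000704), the largest fold among the 36 genes. On TiB2 it was 3.98-fold higher (1.99 ± 0.10; edgeR adjusted p = 2.84e-06), again the largest. ACAT2 was 3.81-fold higher on the HA coating (1.93 ± 0.21; edgeR adjusted p = 0.00138) and 2.92-fold on TiB2.

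MVK, the kinase that phosphorylates mevalonate, had 41.9, 33.1 and 50.0 CPM on the HA coating, 37.6, 36.8 and 37.1 CPM on TiB2 and 13.2, 13.0 and 13.6 CPM on bare alloy. MVD, which removes the carboxyl group, had 37.8, 26.6 and 41.6 CPM on the HA coating, 35.4, 37.0 and 38.1 CPM on TiB2 and 17.2, 15.6 and 17.9 CPM on bare alloy. MVK was 3.12-fold higher on the HA coating (1.64 ± 0.19; edgeR adjusted p = 0.00167) and 2.80-fold on TiB2. MVD was 2.08-fold higher on the HA coating (1.05 ± 0.20; edgeR adjusted p = 0.013) and 2.18-fold on TiB2. PMVK, the kinase between them, did not pass in either comparison: its libraries ran from 27.4 to 43.3 CPM on the HA coating, 23.4 to 24.8 CPM on TiB2 and 24.7 to 29.2 CPM on bare alloy. The MVD call on the HA coating was lost without any 1 of the 3 bare alloy libraries (edgeR adjusted p = 0.056 to 0.081), with log2 fold changes of 1.00 to 1.09.

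IDI1, the isomerase of the isoprene units, had 99.2, 146 and 177 CPM on the HA coating, 108, 96.8 and 109 CPM on TiB2 and 43.2, 48.6 and 39.8 CPM on bare alloy. FDPS, which links them into farnesyl diphosphate, had 245, 269 and 439 CPM on the HA coating, 282, 276 and 297 CPM on TiB2 and 89.1, 97.9 and 90.7 CPM on bare alloy. Coated and bare alloy libraries were apart for both. IDI1 was 3.19-fold higher on the HA coating (1.67 ± 0.22; edgeR adjusted p = 0.00308) and 2.38-fold on TiB2. FDPS was 3.40-fold higher on the HA coating (1.77 ± 0.23; edgeR adjusted p = 0.00308) and 3.08-fold on TiB2. GGPS1, which lengthens farnesyl diphosphate for protein prenylation and so leads away from sterols, did not pass, with 39.2 to 71.7 CPM on the HA coating, 32.8 to 38.3 CPM on TiB2 and 37.8 to 44.1 CPM on bare alloy. Without HA replicate 1, GGPS1 passed as higher on the HA coating than on bare alloy (0.68; edgeR adjusted p = 0.0215), and with an offset for GC content and gene length it passed as lower on TiB2 (-0.27; edgeR adjusted p = 0.0318).

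**Figure D2:**
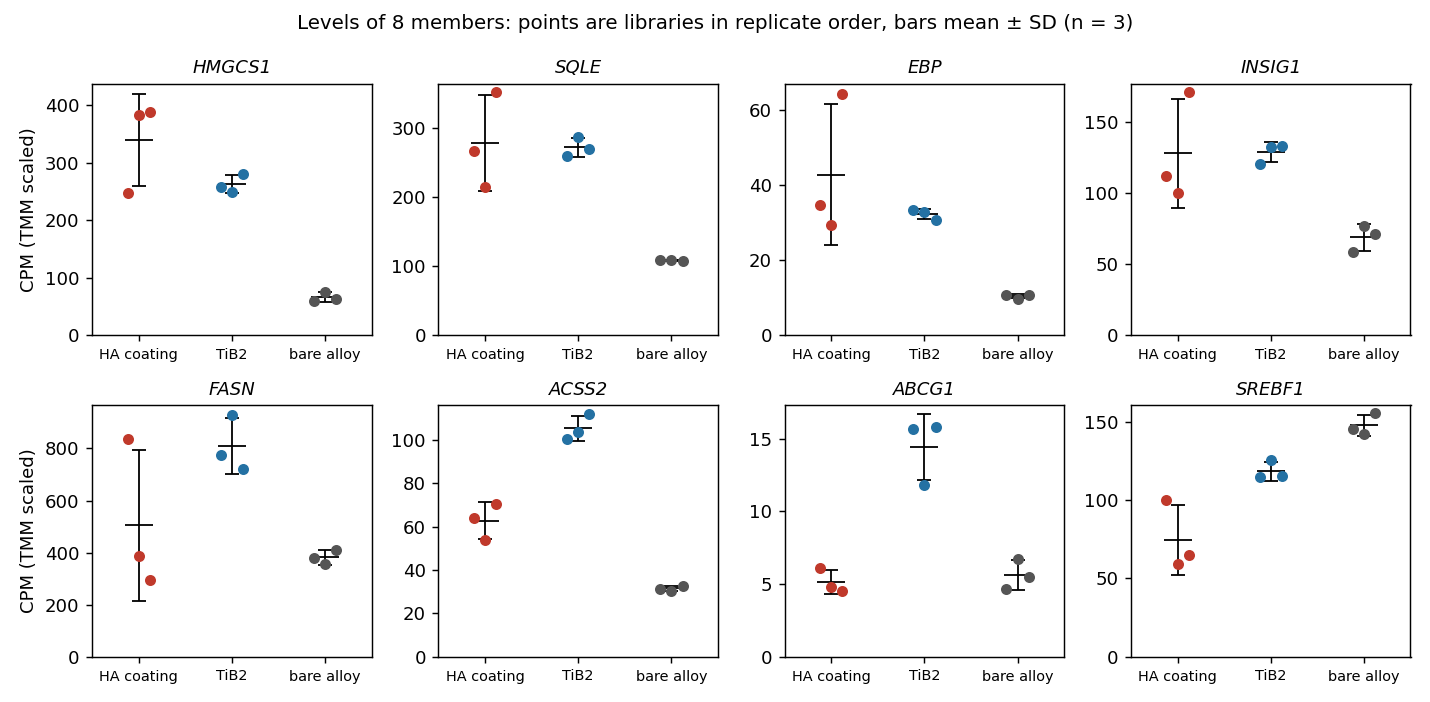
CPM of 8 of the genes in each library (points, in replicate order) with mean and SD of 3 libraries (bars), for HA coating (red), TiB2 (blue) and bare alloy (grey). HMGCS1, SQLE, EBP and INSIG1 lie higher on both coated surfaces than on bare alloy. FASN, ACSS2 and ABCG1 average higher on TiB2 than on either other surface, and SREBF1 is lower on both coated surfaces.

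The sterol segment runs from squalene to cholesterol. Of its 11 listed genes 7 were higher on the HA coating (median 1.23 on the log2 scale over all 11) and 9 on TiB2 (1.07) than on bare alloy. FDFT1, squalene synthase, had 289, 351 and 516 CPM on the HA coating, 336, 329 and 361 CPM on TiB2 and 156, 177 and 156 CPM on bare alloy. SQLE, which adds the epoxide to squalene and is a rate-limiting enzyme of the route, had 267, 215 and 352 CPM on the HA coating, 260.0, 286 and 269 CPM on TiB2 and 109, 108 and 107 CPM on bare alloy. Neither gene overlapped between coated and bare alloy libraries. FDFT1 was 2.35-fold higher on the HA coating (1.23 ± 0.22; edgeR adjusted p = 0.0111) and 2.1-fold on TiB2. SQLE was 2.55-fold higher on the HA coating (1.35 ± 0.20; edgeR adjusted p = 0.00469) and 2.51-fold on TiB2. The FDFT1 call on the HA coating was lost without any 1 of the bare alloy libraries (1.19 to 1.30; edgeR adjusted p = 0.0569 to 0.0724).

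LSS, which closes the rings to lanosterol, had 288, 195 and 209 CPM on the HA coating, 283, 289 and 273 CPM on TiB2 and 204, 191 and 199 CPM on bare alloy. HA replicate 1 lay with the TiB2 libraries and HA replicates 2 and 3 near the bare alloy libraries. LSS did not pass on the HA coating (0.21 ± 0.19; edgeR adjusted p = 0.511) and was 1.42-fold higher on TiB2 (0.51 ± 0.06; edgeR adjusted p = 0.000518). With an offset for GC content and gene length in each library, LSS passed on the HA coating too (0.43; edgeR adjusted p = 0.0141). CYP51A1, the demethylase that acts on lanosterol, had 78.3, 86.6 and 129 CPM on the HA coating, 83.2, 81.7 and 81.5 CPM on TiB2 and 34.5, 33.7 and 31.5 CPM on bare alloy. It was 2.93-fold higher on the HA coating (1.55 ± 0.20; edgeR adjusted p = 0.00308) and 2.47-fold on TiB2. TM7SF2, a sterol reductase, did not pass, at 2.83 to 4.21 CPM on the HA coating, 2.91 to 3.60 CPM on TiB2 and 2.80 to 3.52 CPM on bare alloy.

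MSMO1, NSDHL and HSD17B7 act together to remove the methyl groups of lanosterol's first ring. MSMO1, the oxidase of this group, had 179, 247 and 343 CPM on the HA coating, 185, 186 and 217 CPM on TiB2 and 74.3, 84.6 and 70.2 CPM on bare alloy. NSDHL, the dehydrogenase, had 48.9, 44.6 and 79.5 CPM on the HA coating, 51.6, 45.5 and 53.5 CPM on TiB2 and 28.5, 28.8 and 29.5 CPM on bare alloy. HSD17B7, the ketoreductase, had 11.9, 15.98 and 20.5 CPM on the HA coating, 10.7, 12.6 and 13.5 CPM on TiB2 and 6.45, 6.05 and 7.11 CPM on bare alloy. For all 3 genes each coated library lay above each bare alloy library. MSMO1 was 3.33-fold higher on the HA coating (1.74 ± 0.24; edgeR adjusted p = 0.00359) and 2.57-fold on TiB2. NSDHL was 1.98-fold higher on the HA coating (0.98 ± 0.22; edgeR adjusted p = 0.0262) and 1.73-fold on TiB2, and HSD17B7 2.45-fold (1.29 ± 0.23; edgeR adjusted p = 0.00942) and 1.88-fold. The NSDHL call on the HA coating was lost without any 1 bare alloy library (0.97 to 0.99; edgeR adjusted p = 0.0993 to 0.115), and that of HSD17B7 without bare alloy replicate 2 (1.25; edgeR adjusted p = 0.0614). HSD17B7 has a near copy, HSD17B7P2, with 41 to 195 counts per library, and its values are uncertain where reads could be split between them.

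EBP, the isomerase that moves the ring double bond (chromosome X, 48521799 to 48528710), had 34.6, 29.4 and 64.3 CPM on the HA coating, 33.3, 32.8 and 30.8 CPM on TiB2 and 10.8, 9.70 and 10.8 CPM on bare alloy. HA replicate 3 was the highest and the coated and bare alloy libraries were apart. EBP was 4.07-fold higher on the HA coating (2.02 ± 0.28; edgeR adjusted p = 0.00395) and 3.10-fold on TiB2 (1.63 ± 0.09; edgeR adjusted p = 5.54e-06). DHCR7, the reductase of the last step, had 138, 75.1 and 81.2 CPM on the HA coating, 141, 159 and 132 CPM on TiB2 and 59.7, 61.7 and 67.2 CPM on bare alloy. HA replicate 1 lay again with the TiB2 libraries. DHCR7 did not pass on the HA coating (0.63 ± 0.24; edgeR adjusted p = 0.127) and was 2.29-fold higher on TiB2 (1.19 ± 0.09; edgeR adjusted p = 1.95e-05). SC5D, the desaturase before DHCR7, did not pass, at 63.6 to 94.0 CPM on the HA coating, 65.3 to 67.1 CPM on TiB2 and 51.3 to 64.7 CPM on bare alloy. It passed on the HA coating without HA replicate 1 (0.66; edgeR adjusted p = 0.02) and on TiB2 without bare alloy replicate 2 (0.31; edgeR adjusted p = 0.03).

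Of 4 genes of SREBP regulation 1 was higher and 1 lower on the HA coating, and 2 were higher and 1 lower on TiB2, than on bare alloy. SREBF1 (chromosome 17, 17810399 to 17836986) had 99.9, 59.1 and 64.7 CPM on the HA coating, 115, 125 and 115 CPM on TiB2 and 145, 142 and 155 CPM on bare alloy, with no overlap between coated and bare alloy libraries. It fell 1.99-fold on the HA coating (-0.99 ± 0.22; edgeR adjusted p = 0.0244) and 1.25-fold on TiB2 (-0.32 ± 0.07; edgeR adjusted p = 0.00932). The SREBF1 call on the HA coating was kept with HA replicate 1 left out and lost without any 1 of the other 5 libraries (-1.02 to -0.85; edgeR adjusted p = 0.0546 to 0.111), and on TiB2 it was lost without bare alloy replicate 3 (-0.28; edgeR adjusted p = 0.053). Counts per gene do not tell the SREBP-1 isoforms apart. SREBF2 had 331, 196 and 224 CPM on the HA coating, 334, 379 and 312 CPM on TiB2 and 237, 217 and 241 CPM on bare alloy, so that HA replicates 2 and 3 lay among the bare alloy libraries or below them. It did not pass on the HA coating (0.11 ± 0.22; edgeR adjusted p = 0.797) and was 1.47-fold higher on TiB2 (0.56 ± 0.09; edgeR adjusted p = 0.00159).

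INSIG1, which holds SCAP in the endoplasmic reticulum and is itself a target of SREBP, had 112, 99.8 and 171 CPM on the HA coating, 120.5, 132 and 133 CPM on TiB2 and 58.4, 76.8 and 71.3 CPM on bare alloy. Every coated library lay above every bare alloy library. INSIG1 was 1.84-fold higher on the HA coating (0.88 ± 0.22; edgeR adjusted p = 0.0398) and 1.87-fold on TiB2 (0.90 ± 0.10; edgeR adjusted p = 0.000261). The call on the HA coating was lost without any 1 bare alloy library (0.77 to 0.97; edgeR adjusted p = 0.114 to 0.159). SCAP, the escort that carries SREBPs to the Golgi, did not pass, at 26.9 to 50.7 CPM on the HA coating, 42.1 to 48.2 CPM on TiB2 and 44.7 to 50.5 CPM on bare alloy. Without HA replicate 1, SCAP was lower on the HA coating than on bare alloy (-0.69; edgeR adjusted p = 0.0202).

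Of 4 genes of sterol transport and LXR targets 1 was higher and 1 lower on the HA coating, and 3 were higher and 1 lower on TiB2, than on bare alloy. STARD4, a carrier of sterols between membranes, had 37.4, 49.0 and 53.5 CPM on the HA coating, 39.6, 46.5 and 52.2 CPM on TiB2 and 20.9, 24.7 and 20.2 CPM on bare alloy. It was 2.11-fold higher on the HA coating (1.08 ± 0.18; edgeR adjusted p = 0.00874) and 2.1-fold on TiB2, and the call on the HA coating was lost without bare alloy replicate 1 or 3 (1.04 and 1.01; edgeR adjusted p = 0.0503 and 0.0639). The antisense gene STARD4-AS1 had 155 to 444 counts per library, and strand use is not given in the sources used here. MYLIP, a ubiquitin ligase that marks lipoprotein receptors for breakdown and is an LXR target, had 9.79, 9.50 and 9.62 CPM on the HA coating, 11.9, 11.5 and 10.6 CPM on TiB2 and 15.4, 15.0 and 15.9 CPM on bare alloy. It fell 1.61-fold on the HA coating (-0.69 ± 0.16; edgeR adjusted p = 0.0322) and 1.36-fold on TiB2 (-0.45 ± 0.11; edgeR adjusted p = 0.0147), with no overlap between the 3 surfaces. The MYLIP call on the HA coating was lost without HA replicate 2 or any 1 bare alloy library (-0.70 to -0.67; edgeR adjusted p = 0.0704 to 0.167), and on TiB2 without TiB2 replicate 3 or bare alloy replicate 3 (-0.40 and -0.43; edgeR adjusted p = 0.0585 and 0.0588).

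ABCA1 and ABCG1 pump cholesterol out of cells and are LXR targets. ABCG1 (chromosome 21, 42199689 to 42297244) had 6.09, 4.797 and 4.51 CPM on the HA coating, 15.6, 11.8 and 15.8 CPM on TiB2 and 4.66, 6.73 and 5.47 CPM on bare alloy. The HA and bare alloy libraries overlapped, and every TiB2 library lay above them. ABCG1 was 2.56-fold higher on TiB2 than on bare alloy (1.36 ± 0.18; edgeR adjusted p = 0.000596) and did not pass on the HA coating against bare alloy (-0.14 ± 0.23; edgeR adjusted p = 0.748). It was 2.82-fold lower on the HA coating than on TiB2 (-1.50 ± 0.22; edgeR adjusted p = 0.0142), a call lost without HA replicate 2, TiB2 replicate 1 or TiB2 replicate 3 (-1.46 to -1.42; edgeR adjusted p = 0.0866 to 0.118). ABCA1 had 26.6, 30.2 and 18.4 CPM on the HA coating, 53.6, 47.6 and 52.8 CPM on TiB2 and 35.2, 32.1 and 29.2 CPM on bare alloy. It was 1.59-fold higher on TiB2 than on bare alloy (0.67 ± 0.09; edgeR adjusted p = 0.000875) and did not pass on the HA coating against bare alloy (-0.37 ± 0.21; edgeR adjusted p = 0.299). Between the coated surfaces ABCA1 missed the threshold (-1.04 ± 0.21; edgeR adjusted p = 0.0697), and it passed without HA replicate 1 or HA replicate 3 (-1.09 and -0.87; edgeR adjusted p = 0.0406 and 0.0493).

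All 8 fatty acid enzymes were higher on TiB2 than on bare alloy (median 0.94 on the log2 scale), and 2 of 8, ACSS2 and ELOVL6, on the HA coating (median 0.35). On TiB2 the count was 5 of 8 in a fit of all 9 libraries, without ACLY, ACACA and FASN. It was 4 of 8 with a term that sets bare alloy replicate 1 and the HA libraries against the other 5, where ELOVL6 was lost too. That term in effect compares TiB2 with bare alloy replicates 2 and 3 alone. Over all genes 2132 and 1173 passed in these fits, against 5059 in the fit of the TiB2 and bare alloy libraries. ACLY, which cleaves citrate to acetyl-CoA, had 400.2, 256 and 263 CPM on the HA coating, 395, 406 and 349.8 CPM on TiB2 and 309, 292 and 316 CPM on bare alloy. ACSS2, which makes acetyl-CoA from acetate, had 64.1, 53.7 and 70.4 CPM on the HA coating, 100.4, 104 and 112 CPM on TiB2 and 31.4, 30.5 and 32.8 CPM on bare alloy. ACLY split, with HA replicate 1 among the TiB2 libraries and HA replicates 2 and 3 below every bare alloy library, whereas the 3 surfaces were apart for ACSS2. ACSS2 was 1.98-fold higher on the HA coating (0.98 ± 0.16; edgeR adjusted p = 0.00663) and 3.34-fold on TiB2 (1.74 ± 0.08; edgeR adjusted p = 1.17e-06), and the call on the HA coating was lost without bare alloy replicate 2 (0.96; edgeR adjusted p = 0.0565). ACLY was 1.25-fold higher on TiB2 (0.33 ± 0.08; edgeR adjusted p = 0.0138), which was lost without bare alloy replicate 2 (0.29; edgeR adjusted p = 0.06), and did not pass on the HA coating (0.00 ± 0.21).

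ACACA, which makes malonyl-CoA, had 266, 209 and 113 CPM on the HA coating, 334, 319 and 273 CPM on TiB2 and 221, 233 and 236 CPM on bare alloy. FASN, fatty acid synthase (chromosome 17, 82078338 to 82098294), had 836, 386 and 295 CPM on the HA coating, 775, 929 and 721 CPM on TiB2 and 379, 355 and 411 CPM on bare alloy. For both genes the 3 TiB2 libraries lay above the 3 bare alloy libraries, while the HA libraries spread on both sides of the bare alloy range. FASN was 2.12-fold higher on TiB2 (1.08 ± 0.11; edgeR adjusted p = 0.000123) and did not pass on the HA coating (0.40 ± 0.35; edgeR adjusted p = 0.495), where its log2 fold change was -0.17 without HA replicate 1. With the offset for GC content and gene length FASN passed on the HA coating (0.90; edgeR adjusted p = 0.00596), and its transcript is 65.3% GC. ACACA was 1.34-fold higher on TiB2 (0.43 ± 0.08; edgeR adjusted p = 0.00548) and did not pass on the HA coating (-0.23 ± 0.28; edgeR adjusted p = 0.639).

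ELOVL6, which lengthens palmitate, had 24.3, 32.2 and 26.5 CPM on the HA coating, 27.1, 19.1 and 20.6 CPM on TiB2 and 12.7, 15.8 and 13.9 CPM on bare alloy. SCD, which puts the first double bond into stearate and palmitate, had 1188, 816 and 1116 CPM on the HA coating, 1513, 1752 and 1795 CPM on TiB2 and 910.2, 908 and 879.8 CPM on bare alloy. ELOVL6 was the only fatty acid enzyme with a higher mean on the HA coating than on TiB2, and SCD lay higher in each TiB2 library than in any other library. ELOVL6 was 1.95-fold higher on the HA coating (0.96 ± 0.18; edgeR adjusted p = 0.0131) and 1.57-fold on TiB2 (0.65 ± 0.15; edgeR adjusted p = 0.0103), and the call on the HA coating was lost without any 1 bare alloy library (0.89 to 1.05; edgeR adjusted p = 0.0562 to 0.0865). SCD was 1.87-fold higher on TiB2 (0.91 ± 0.09; edgeR adjusted p = 0.00014) and did not pass on the HA coating (0.20 ± 0.20; edgeR adjusted p = 0.547).

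FADS1 and FADS2 are desaturases of polyunsaturated fatty acids. Their rows overlap on opposite strands (chromosome 11, 61799627 to 61829318 for FADS1 and 61792980 to 61867354 for FADS2), so their values are uncertain where strand was not used in counting. FADS1 had 209, 186 and 176 CPM on the HA coating, 286, 294 and 294 CPM on TiB2 and 136, 139.9 and 143 CPM on bare alloy, in 3 ranges that did not overlap. FADS2 had 244, 148 and 147 CPM on the HA coating, 278, 311 and 274 CPM on TiB2 and 153, 142 and 141 CPM on bare alloy, with HA replicates 2 and 3 inside the bare alloy range. On TiB2 FADS1 was 2.08-fold higher (1.06 ± 0.06; edgeR adjusted p = 6.06e-06) and FADS2 1.98-fold (0.98 ± 0.08; edgeR adjusted p = 2.88e-05). Neither passed on the HA coating (0.44 ± 0.15 with edgeR adjusted p = 0.106 for FADS1, 0.30 ± 0.22 with 0.423 for FADS2). Both passed with the offset for GC content and gene length (0.55 and 0.52; edgeR adjusted p = 0.0051 and 0.0145), and FADS1 passed without HA replicate 3 (0.50; edgeR adjusted p = 0.049). LPIN1, the phosphatidate phosphatase that turns phosphatidate into diacylglycerol, did not pass, at 452 to 653 CPM on the HA coating, 671 to 762 CPM on TiB2 and 822 to 842 CPM on bare alloy. It passed as lower on the HA coating without HA replicate 1 (-0.70; edgeR adjusted p = 0.025) and with the offset (-0.43; edgeR adjusted p = 0.037), and as lower on TiB2 without TiB2 replicate 2 (-0.27; edgeR adjusted p = 0.0436) and with the offset (-0.22; edgeR adjusted p = 0.0206).

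Sterol and fatty acid enzymes were set against each other within each surface. Over the 19 sterol enzymes, 13 were higher on the HA coating and 15 on TiB2 than on bare alloy, with medians of 1.29 and 1.19 on the log2 scale. The median of the sterol enzymes exceeded that of the 8 fatty acid enzymes by 0.94 on the HA coating against bare alloy, by 0.25 on TiB2 against bare alloy and by 0.91 on the HA coating against TiB2. No test is given for these differences, since the genes were chosen with results of these data known. In single libraries the mean log2 CPM of the sterol enzymes minus that of the fatty acid enzymes was -1.69, -1.20 and -0.63 on the HA coating, -1.92, -1.94 and -1.81 on TiB2, and -2.0, -1.97 and -2.03 on bare alloy. All 3 HA libraries lay above all others, with a wide spread among them, and HA replicate 1 was nearest to TiB2.

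**Figure D3:**
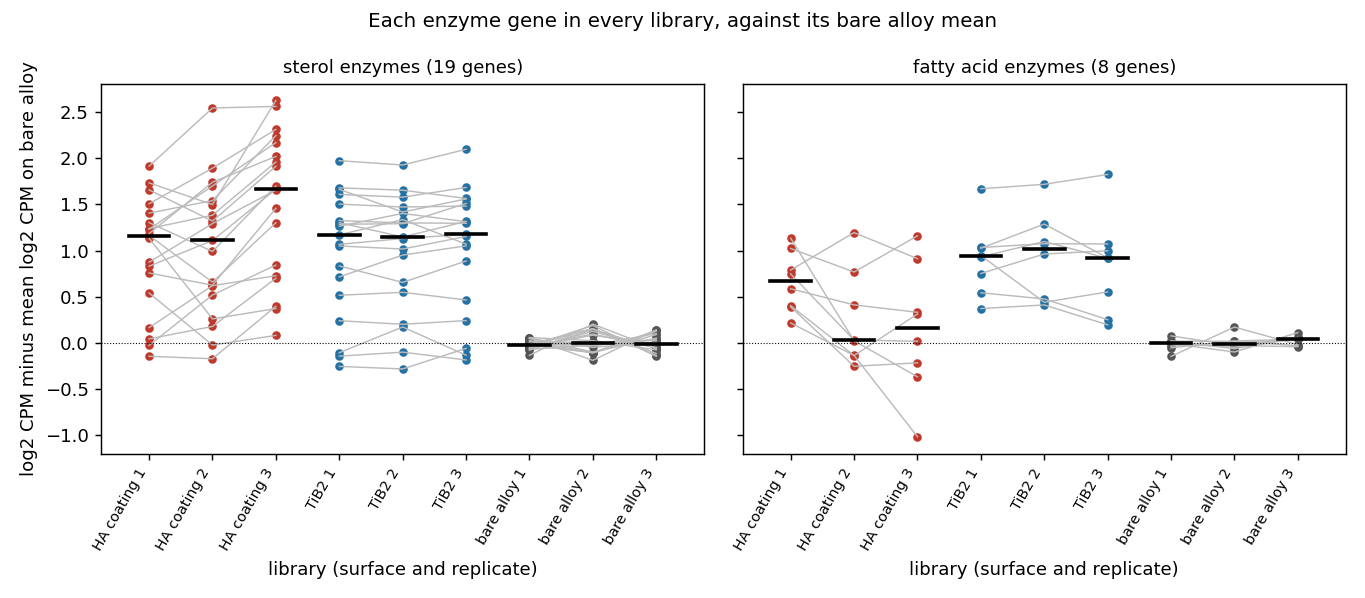
Log2 CPM of each of the 19 sterol enzymes (left) and 8 fatty acid enzymes (right) in every library minus its mean log2 CPM on bare alloy, with thin lines joining 1 gene across the libraries of a surface and bars at the median. Sterol medians are 1.16, 1.11 and 1.67 in the HA libraries and 1.17, 1.15 and 1.17 in the TiB2 libraries. Fatty acid medians are 0.67, 0.02 and 0.16 in the HA libraries and 0.94, 1.02 and 0.92 in the TiB2 libraries.

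The fatty acid enzymes had longer transcripts than the sterol enzymes, with median lengths of 5218 and 2666 bases, and a median GC content of 51.1% against 50.2%. With the offset for GC content and gene length, 5 of 8 fatty acid enzymes (ACSS2, ELOVL6, FASN, FADS1 and FADS2) and 14 of 19 sterol enzymes were higher on the HA coating than on bare alloy. Over all 20117 genes tested, 1009 were higher without the offset and 1652 with it. The sterol excess over fatty acid enzymes was then 0.60 on the HA coating against bare alloy, 0.21 on TiB2 against bare alloy and 0.54 on the HA coating against TiB2. Without HA replicate 3 it was 0.63 on the HA coating against bare alloy and 0.48 on the HA coating against TiB2, and without HA replicate 1 it was 1.35 and 1.18.

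**Figure D4:**
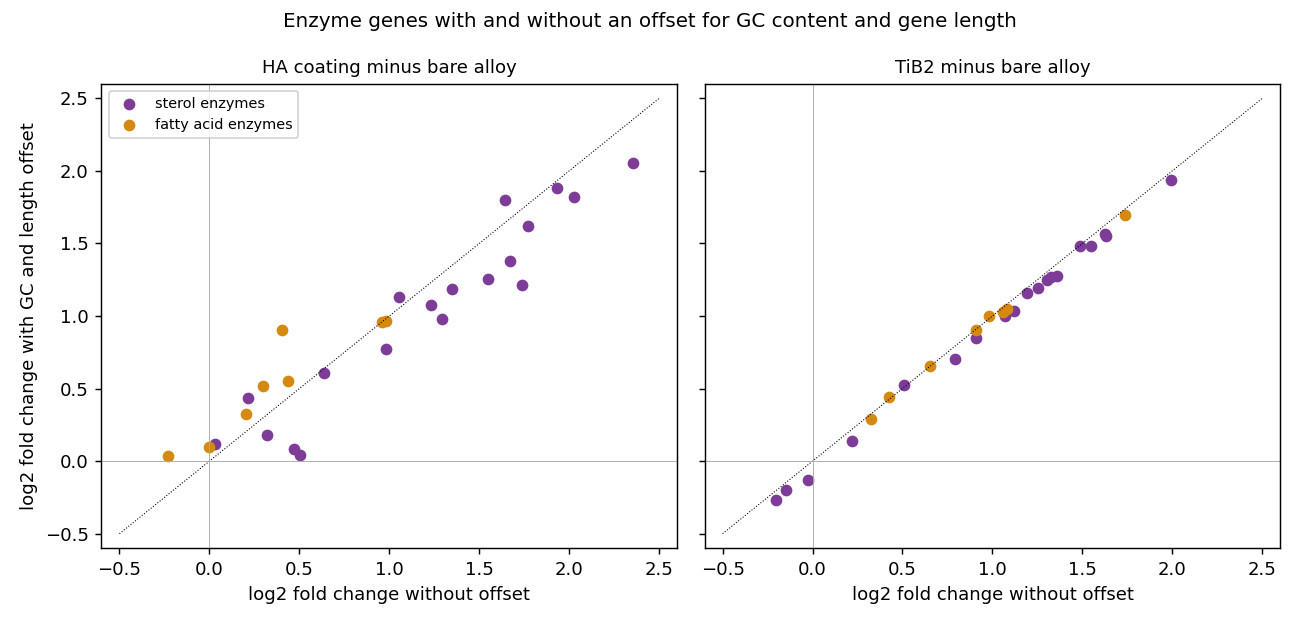
Log2 fold change of sterol enzymes (purple) and fatty acid enzymes (orange) without (horizontal) and with (vertical) an offset for GC content and gene length, for HA coating minus bare alloy (left) and TiB2 minus bare alloy (right). The dotted line marks equal values. Points leave the line on the HA coating, where the median of the sterol enzymes is 1.13 and that of the fatty acid enzymes 0.54 with the offset, and stay near it on TiB2, with 1.16 and 0.95.

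Between the 2 coated surfaces the 19 sterol enzymes had a median of 0.24 and the 8 fatty acid enzymes a median of -0.67 on the log2 scale (HA coating minus TiB2), and no enzyme passed the test. The lowest adjusted p among the enzymes was that of ACSS2 (-0.76 ± 0.17; edgeR adjusted p = 0.0951). SCD differed by -0.71 ± 0.20 (edgeR adjusted p = 0.21), FADS1 by -0.62 ± 0.16 (0.178 in the same test) and FASN by -0.68 ± 0.35 (0.451). With DESeq2 on the same libraries 5 of the 36 genes passed, all lower, namely ABCG1, ABCA1, ACSS2, SCD and FADS1, out of 501 genes in all. The edgeR count depended on HA replicate 1. Without it 11 of the 36 genes passed: GGPS1 was higher on the HA coating than on TiB2 (0.87; edgeR adjusted p = 0.0321), and DHCR7, SREBF1, SREBF2, ABCA1, ABCG1, ACSS2, FASN, SCD, FADS1 and FADS2 were lower. In that fit FASN was lower by -1.26 and FADS2 by -0.98 on the log2 scale (edgeR adjusted p = 0.0233 and 0.0216), while 1224 genes passed in all. HA replicate 1 was the HA library with the weakest trend with GC content and length, and the part of that trend in these calls was not tested. With the offset and all 6 libraries 3 of 36 genes passed, namely ABCG1, ABCA1 (-0.83; edgeR adjusted p = 0.0243) and ACSS2 (-0.73; edgeR adjusted p = 0.0149). Over all genes 192 passed in that fit, against 127 without the offset.

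Levels per length (FPKM, set by the authors) show which steps carry most RNA. SCD was the highest of the 36 genes on each surface, with 187 ± 33.2 FPKM on the HA coating, 312 ± 31.2 FPKM on TiB2 and 161 ± 8.38 FPKM on bare alloy (SD, n = 3 each). On the HA coating it was followed by MSMO1 with 84.0 ± 21.3 and FDPS with 79.6 ± 19.6 FPKM, which do not differ beyond their spread. On TiB2 it was followed by FASN with 84.2 ± 12 and FDPS with 74.4 ± 2.81 FPKM, again within their spread. On bare alloy it was followed by LPIN1 with 65.6 ± 3.20 and ACLY with 55.1 ± 3.67 FPKM, so that no sterol enzyme stood in the first 3 places there. MVK, at 4.33 ± 0.58 FPKM on the HA coating, 3.99 ± 0.00487 FPKM on TiB2 and 1.37 ± 0.10 FPKM on bare alloy, was the lowest mevalonate gene on each surface. TM7SF2 was below 1 FPKM on each surface on average, at 0.885 ± 0.138 FPKM on the HA coating, 0.878 ± 0.116 FPKM on TiB2 and 0.863 ± 0.107 FPKM on bare alloy. ABCG1 was the other gene with a mean below 1, at 0.793 ± 0.168 FPKM on the HA coating, 2.28 ± 0.34 FPKM on TiB2 and 0.859 ± 0.200 FPKM on bare alloy.

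**Figure D5:**
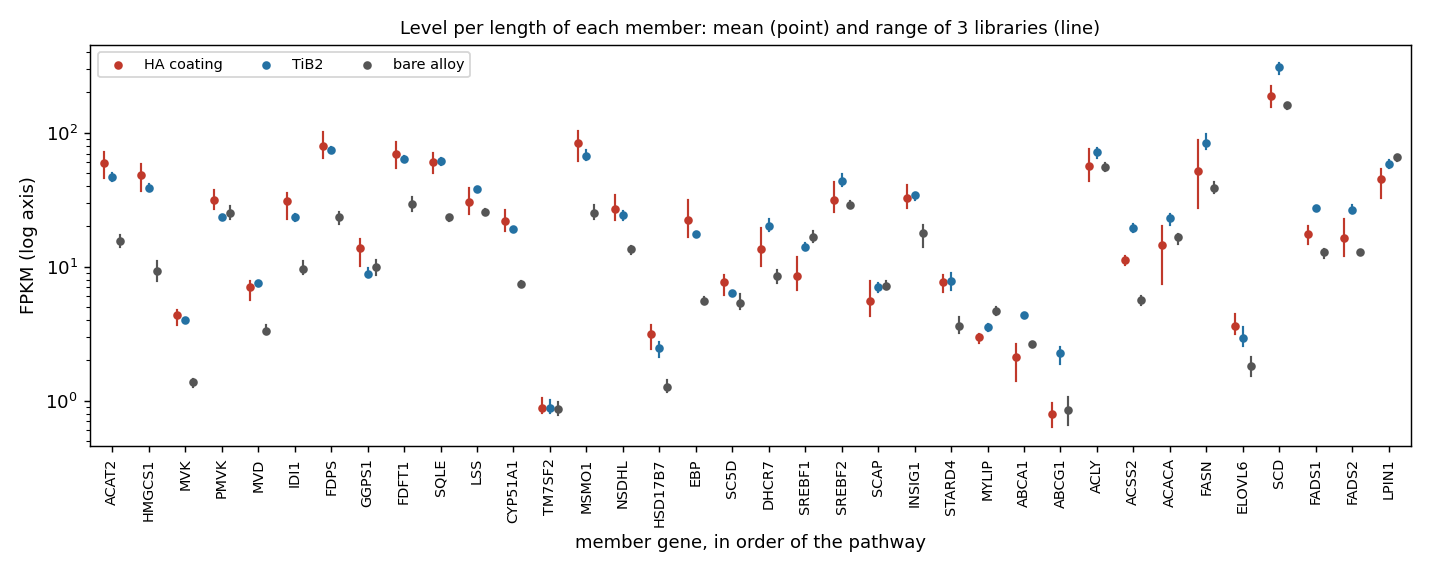
FPKM of each of the 36 genes in order of the pathway, on a log axis, as the mean (point) and range (line) of 3 libraries on the HA coating (red), TiB2 (blue) and bare alloy (grey). SCD is the highest throughout, with means of 187, 312 and 161 FPKM on the 3 surfaces in that order, and TM7SF2 and ABCG1 lie lowest.

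Other genes around the pathway were counted from lists that were likewise chosen with results of these data known. Of 11 other sterol-regulated SREBP targets 3 were higher on the HA coating and 9 on TiB2 than on bare alloy, and none was lower on either. Over all genes tested the shares higher were 5.02% on the HA coating and 12.9% on TiB2, the shares lower 4.88% and 12.2%, and the shares in either direction 9.89% and 25.1%, and the counts of each list that follows stand against these. FABP3, a carrier of fatty acids, had 38.9 ± 15.6 CPM on the HA coating, 38.8 ± 5.26 CPM on TiB2 and 5.45 ± 0.32 CPM on bare alloy (SD, n = 3 each). It was 7.08-fold higher on the HA coating (2.82 ± 0.28; edgeR adjusted p = 0.000839) and 7.12-fold on TiB2 (2.83 ± 0.12; edgeR adjusted p = 1.17e-06). MMAB, a cobalamin enzyme whose gene lies beside MVK, was 2.02-fold higher on the HA coating and 1.74-fold on TiB2. VLDLR, a lipoprotein receptor, was 1.71-fold higher on the HA coating (edgeR adjusted p = 0.0453) and 1.85-fold on TiB2. NPC2, which moves cholesterol out of lysosomes, was 1.97-fold higher on TiB2 (0.98 ± 0.10; edgeR adjusted p = 0.000131). The MMAB call on the HA coating was lost without any 1 bare alloy library (0.95 to 1.05; edgeR adjusted p = 0.0527 to 0.0848), and the VLDLR call without HA replicate 2 or any 1 bare alloy library (0.73 to 0.82; edgeR adjusted p = 0.0853 to 0.205).

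Of 12 tested genes of LXR and sterol outflow 2 were higher and 2 lower on the HA coating, and 3 higher and 2 lower on TiB2, than on bare alloy (9.89% and 25.1% of all genes in either direction). CH25H, which makes an oxysterol that blocks SREBP processing, had 28.5 ± 13.1 CPM on the HA coating, 16.5 ± 2.19 CPM on TiB2 and 3.58 ± 0.04 CPM on bare alloy. It was 7.89-fold higher on the HA coating (2.98 ± 0.32; edgeR adjusted p = 0.00124) and 4.61-fold on TiB2 (2.2 ± 0.14; edgeR adjusted p = 1.09e-05). SOAT1, which esterifies cholesterol, was 1.53-fold higher on the HA coating and 1.46-fold on TiB2, where LPCAT3, a phospholipid acyltransferase, was also higher. RXRA, the partner receptor of LXRs, fell 1.83-fold on the HA coating and 1.65-fold on TiB2. SMPDL3A, an LXR target, fell 1.86-fold on the HA coating and 2.47-fold on TiB2. The SOAT1, RXRA and SMPDL3A calls on the HA coating were each lost without HA replicate 2 or any 1 bare alloy library, that of RXRA also without HA replicate 3 and that of SMPDL3A also without HA replicate 1. Their log2 fold changes were then 0.58 to 0.63 for SOAT1, -0.97 to -0.68 for RXRA and -0.93 to -0.73 for SMPDL3A. LPCAT3 was lost on TiB2 without TiB2 replicate 1, bare alloy replicate 2 or bare alloy replicate 3 (0.42 to 0.49).

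Of 14 genes of SREBP processing 1 passed on the HA coating and 5 on TiB2, against 9.89% and 25.1% of all genes. The gene higher on the HA coating was SAR1B, a GTPase of the vesicles that leave the endoplasmic reticulum (1.81-fold). On TiB2 SAR1B (1.37-fold) and the vesicle coat gene SEC24A (1.27-fold) were higher. Among the lower genes on TiB2 were MBTPS1 (1.26-fold) and MBTPS2 (1.21-fold), which encode the proteases that free SREBPs in the Golgi. Of 13 tested genes of isoprenoid branches 1 passed on the HA coating and 3 on TiB2, which is near the shares over all genes. RABGGTB, a subunit of the enzyme that prenylates Rab proteins, was higher on the HA coating (1.76-fold) and on TiB2 (1.26-fold), where COQ2 was higher (1.54-fold) and CHM lower (1.37-fold). Of 8 redox partners and scaffolds of sterol enzymes, likewise near those shares, CYB5B passed on the HA coating (1.89-fold higher), and CYB5B and ERG28 on TiB2 (1.56-fold and 1.54-fold higher). The calls of SAR1B, RABGGTB and CYB5B on the HA coating were lost without HA replicate 2 or any 1 bare alloy library, and that of RABGGTB also without HA replicate 3. Their log2 fold changes were then 0.83 to 0.90 for SAR1B, 0.65 to 0.84 for RABGGTB and 0.85 to 0.99 for CYB5B. On TiB2 the SEC24A and MBTPS2 calls were kept in 1 of 6 such fits, without TiB2 replicate 1. The COQ2 call was lost without TiB2 replicate 1 or any 1 bare alloy library, and that of CHM without TiB2 replicate 2, TiB2 replicate 3 or bare alloy replicate 2.

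Of 23 tested genes of fatty acid elongation, desaturation and acyl chains, 2 were higher and 1 lower on the HA coating, and 7 higher and 2 lower on TiB2, than on bare alloy, against the same 9.89% and 25.1%. ELOVL2, which lengthens polyunsaturated fatty acids, had 44.3 ± 0.97 CPM on the HA coating, 84.5 ± 2.66 CPM on TiB2 and 19.4 ± 0.60 CPM on bare alloy. It was 2.27-fold higher on the HA coating (1.19 ± 0.15; edgeR adjusted p = 0.00256) and 4.37-fold on TiB2 (2.13 ± 0.07; edgeR adjusted p = 3.83e-07). Against TiB2 it was 1.92-fold lower on the HA coating (-0.94 ± 0.15; edgeR adjusted p = 0.023), a call lost without HA replicate 2 or any 1 TiB2 library (-0.97 to -0.93; edgeR adjusted p = 0.101 to 0.179). ME1, which makes NADPH for fatty acid synthesis, was 1.57-fold higher on the HA coating and 1.94-fold on TiB2, where FADS3 was 1.77-fold higher. SCD5, another stearoyl-CoA desaturase, fell 1.95-fold on the HA coating and 1.44-fold on TiB2. The ME1 and SCD5 calls on the HA coating were lost without HA replicate 2 or any 1 bare alloy library (0.63 to 0.68 for ME1, -1.02 to -0.76 for SCD5), and on TiB2 that of SCD5 was kept only without TiB2 replicate 1. Of 11 tested genes of glycerolipid synthesis AGPAT4, an acyltransferase, fell 1.53-fold on the HA coating and 1.48-fold on TiB2, and no other gene passed, against 4.88% and 12.2% of all genes lower. The AGPAT4 call on the HA coating was kept only without HA replicate 1 (lost at -0.67 to -0.52; edgeR adjusted p = 0.0546 to 0.184).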

How the data were processed

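The authors deposited 1 table of 36385 genes that holds, per the file headers, raw counts and FPKM values for each library. The submitters' processing notes name the build GRCh38 and, without a role for each, featureCounts 2.0.1, StringTie 2.1.4, HISAT2 2.2.1, cutadapt 2.10 and limma. No source used here states how strand and multi-mapping reads were handled. Sample titles gave groups and replicate numbers. The genes, lists and tests were chosen with earlier results of these data known.

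From the deposited counts, each comparison was fitted on its own 6 libraries with edgeR 4.0.16 (R 4.3.3): filterByExpr, TMM scaling and the two-sided quasi-likelihood test, with Benjamini-Hochberg adjustment over all genes and a threshold of 0.05. The standard error is the log2 fold change over the square root of F. CPM values are TMM-scaled over 9 libraries, and levels between genes use the deposited FPKM values, scaled by the authors to length and depth. Alternatives were DESeq2 1.42.0, RLE size factors, limma 3.58.1 on log2(FPKM + 1) and log2(FPKM + 0.1), other filters, all 9 libraries in 1 fit, a library-set term, a replicate block, leaving out each library, and an offset for GC content and length from GENCODE 29 (94.7% of identifiers matched). Every gene of the pathway past the threshold is named, and of each other list up to 3 per comparison or all where few passed, apart from a result that is not reported here. Promoter windows came from RefSeq (GRCh38.p14). Over 6304 genes the deviations of same-numbered libraries from their group means had correlations of -0.055, 0.243 and -0.17 for HA coating and bare alloy. Libraries with unlike numbers ran from -0.263 to 0.333 there. With 3 libraries per group these values cannot show whether the numbers pair the samples, and the main fits treat them as unpaired. Counts of 58464306 to 72542556 per library set the counting error, and a count of 0 allows 3 counts, a limit on counting error alone. Tested on simulated data, edgeR recovered 57% of 2-fold changes and 73% of 4-fold changes in TiB2 against bare alloy (20152 genes). For HA coating the shares were 17% and 65% against bare alloy (20117 genes) and 32% and 74% against TiB2 (20086 genes).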

Additional observations from a re-analysis of the deposited data

How the results depend on the processing

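Counts of calls moved more with the setting than directions did. On the HA coating against bare alloy the 19 calls among the 36 genes became 11 with the library set as a term (bare alloy replicate 1 with the HA libraries against the other 5) and 10 to 23 with 1 library left out. The 1990 genes called in all became 3562 with DESeq2, 3618 with the GC and length offset, 3518 with all 9 libraries in 1 fit, 950 with a mean FPKM of at least 5, 1093 with no filter, 704 with the library set, and 598 to 4185 with 1 library left out. On TiB2 against bare alloy the 30 calls became 18 with the library set, and 28 to 31 with 1 library left out. There the 5059 genes in all became 2132 with all 9 libraries, 2594 with the FPKM minimum, 1173 with the library set and 3685 to 4211 with 1 library left out. On the HA coating against TiB2 the 1 call became 5 with DESeq2, 3 with the offset, 3 with all 9 libraries, 0 with the library set, with limma on log2(FPKM + 1), with the FPKM minimum and with no filter, and 0 to 11 with 1 library left out. The 127 genes in all became 501 with DESeq2, 192, 67, 14, 49, 13 and 35 in those 6 other settings in the same order, and 49 to 1224 with 1 library left out. With the library-set term, the HA coating is in effect compared with bare alloy replicate 1 alone, and TiB2 with the other bare alloy libraries. Between the coated surfaces that term adds the gap between bare alloy replicate 1 and the other bare alloy libraries to the difference. The library-set counts therefore rest on fewer libraries. The cause of the other shifts was not tested, apart from the fewer genes or libraries of the fits that drop them. The library-set calls lost on the HA coating were MVD, FDFT1, NSDHL, HSD17B7, SREBF1, INSIG1, MYLIP and ELOVL6. On TiB2 they were LSS, NSDHL, HSD17B7, SREBF1, SREBF2, INSIG1, MYLIP, ABCA1, ACLY, ACACA, FASN and ELOVL6, and the fit of all 9 libraries made 23 calls there, without LSS, SREBF1, SREBF2, MYLIP, ACLY, ACACA and FASN.

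Directions past the threshold were the same in every setting run. Genes short of it changed sign as follows. Against bare alloy, on the HA coating, ACLY was 0.0991 with the offset and 0.0019 with no filter, ACACA 0.0373 with the offset, and with the library set TM7SF2 was -0.0102 and ABCG1 0.13. With 1 library left out SREBF2 ranged over -0.15 to 0.26, FASN -0.17 to 0.68, ACLY -0.24 to 0.11, TM7SF2 -0.16 to 0.13, ACACA -0.51 to 0.0516 and ABCG1 -0.27 to 0.0138. On TiB2 against bare alloy TM7SF2 was 0.0205 and 0.0108 with limma on log2(FPKM + 0.1) and log2(FPKM + 1), and -0.13 to 0.0466 with 1 library left out. On the HA coating against TiB2 the offset gave 0.0943 for MVD, -0.0844 for SQLE, -0.0641 for MSMO1, -0.0964 for SC5D and -0.24 for STARD4. The library set gave -0.00696 for TM7SF2 and 0.33 for INSIG1. These library-set values include the gap between bare alloy replicate 1 and the other bare alloy libraries, so they are not differences between the coated surfaces alone. With limma on log2(FPKM + 0.1), limma on log2(FPKM + 1) and the FPKM minimum, SQLE was -0.0317, -0.0311 and -0.0556 and STARD4 -0.0269, -0.024 and -0.0647. With 1 library left out INSIG1 ranged over -0.29 to 0.12, MVD -0.21 to 0.0908, STARD4 -0.11 to 0.14, FDPS -0.16 to 0.29, FDFT1 -0.11 to 0.32, SQLE -0.19 to 0.17, CYP51A1 -0.00814 to 0.37, TM7SF2 -0.16 to 0.16, NSDHL -0.12 to 0.33 and EBP -0.0258 to 0.59.

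With the replicate number as a block, 17 of 36 genes passed on the HA coating against bare alloy (INSIG1 and MYLIP were lost), 27 on TiB2 against bare alloy (SREBF1, MYLIP and ACLY were lost) and 1 on the HA coating against TiB2, out of 1357, 3625 and 195 genes in all. Between the coated surfaces the block gave -0.0048 for SQLE and -0.00039 for STARD4. Whether the numbers pair the samples is not known.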
